A study of Homo sapiens with 6 samples.

Results

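The membrane-associated RING-CH (MARCH) ubiquitin ligases appeared in the deposited count table as 9 rows whose symbols a spreadsheet had turned into dates, 1-Mar to 9-Mar, out of 19475 gene symbols. The rows were taken by their symbols, N-Mar standing for MARCHN, and 9-Mar was selected on its low level in irradiated cells, so its values are a description and carry no test. The symbols 1-Mar and 2-Mar could also have come from the unrelated genes MARC1 and MARC2, but both of those had rows of their own, and the date rows are therefore read as MARCH1 and MARCH2. The current symbols of the 9 genes are MARCHF1 to MARCHF9.

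RNA was sequenced from MH7A cells, a line of synovial fibroblasts from a patient with rheumatoid arthritis that carries the SV40 large T antigen. Cells of the TNF + LED group (replicates 4, 6 and 10) received TNFα at 10 ng/ml and 630 nm light from a light-emitting diode, in sessions of 15 min given 3 times. Cells of the TNF group (replicates 2, 8 and 14) received TNFα at 10 ng/ml alone. TNFα was common to all 6 libraries, and no group without TNFα or with sham or warmed handling was analysed here. The comparison asks what the light changed in TNFα-treated cells.

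MARCH ligases carry a variant RING finger, the RING-CH domain, which brings a ubiquitin-conjugating enzyme to a substrate. Most are anchored in a membrane, where they tag proteins of that membrane, and a tagged surface receptor is taken into the cell and carried by the ESCRT machinery to the lysosome. MARCH9 and MARCH4 act in the Golgi and lower MHC class I at the surface, MARCH1 and MARCH8 act on MHC class II and other receptors, MARCH2 and MARCH3 sit on endosomes, MARCH5 on the mitochondrial outer membrane and MARCH6 in the endoplasmic reticulum (ER). MARCH7 lacks membrane-spanning segments. In fibroblasts, TNFα raises several of the surface proteins that MARCH ligases have been reported to remove, ICAM1 among them.

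The sequences upstream of MARCH9 and of its close relative MARCH4 are shown because these are the members with the lowest ratios between the groups. The ratio of MARCH2 (0.660) was nearly that of MARCH4 (0.657). Both were taken from RefSeq (GRCh38.p14), run 5′ to 3′ toward the gene and stop before the first annotated exon base. Capitals mark the GC box, GGGCGG on either strand, the motif bound by Sp1-family factors. The MARCHF9 stretch is chr12:57754853-57755097 on the plus strand and the MARCHF4 stretch is chr2:216372484-216372733 on the minus strand.
MARCHF9: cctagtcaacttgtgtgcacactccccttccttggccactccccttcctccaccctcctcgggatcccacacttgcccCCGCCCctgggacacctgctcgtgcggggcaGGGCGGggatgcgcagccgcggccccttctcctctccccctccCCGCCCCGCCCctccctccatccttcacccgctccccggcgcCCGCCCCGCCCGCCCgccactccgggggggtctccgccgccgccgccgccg
MARCHF4: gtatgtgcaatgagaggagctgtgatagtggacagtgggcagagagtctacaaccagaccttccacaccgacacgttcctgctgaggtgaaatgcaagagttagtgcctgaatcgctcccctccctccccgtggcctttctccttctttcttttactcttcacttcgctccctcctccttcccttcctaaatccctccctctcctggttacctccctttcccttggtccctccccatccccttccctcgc

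The 250 bases before the MARCHF9 start held 7 GC boxes and 76.0% G or C. The 250 bases before the MARCHF4 start held 0 GC boxes and 55.2% G or C. The median over 27305 promoters was 58% G or C. The MARCHF4 start was found in 0 annotated transcripts of its gene, and the MARCHF9 start in 1. Whether the MARCHF4 window is the promoter of the RNA counted here was not tested. A GC box was present in 42.3% of all promoters, counted with 1 window per gene. The 8 members with an entry had 13 windows, some genes having several, and 7 of the 13 held a GC box. Among the first-listed windows of the members, all but that of MARCHF4 held a GC box. Shares over the 13 windows are thus not on the same footing as those of all promoters, for this motif and those below. The MARCHF9 window also held 1 NF-kB site on either strand, at -31 from the start, a motif found in 9.57% of all promoters and in 1 of the 13 member windows. This window also lies inside the span of the gene CDK4, which runs on the opposite strand from -7.37 to 0.915 kb of the MARCH9 start. The heat shock element core (GAANNTTC, 5.85% of promoters; inverted as TTCNNGAA, 6.72%), the AP-1 site (TGANTCA, 6.6%) and the E2F site (TTTNNCGC, 5.93%) were in 0 of the 13 windows. CCAAT occurred in 3 of the 13 windows and in 33% of promoters, and TATAAA in 1 of 13 and in 11.1%. Among the first-listed windows, CCAAT was in those of MARCHF1 and MARCHF2 only, and TATAAA was in none. All motifs were sought on both strands, and matches describe letters only.

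The libraries summed to between 86000253 and 108074289 units of estimated count, and 14079 to 14943 symbols were above 0 in each. Low values clustered at 4, so 1 sequenced fragment appeared to be worth about 4 units and the totals correspond to about 21500063 to 27018572 fragments. Of 10 fibroblast markers, 9 were present, and their summed level was 23900 to 25300 CPM (estimated counts scaled to a common TMM-adjusted library total) in TNF + LED libraries and 28100 to 30100 CPM in TNF libraries. The remaining one, PRG4, a product of the synovial lining, was at most 0.0787 CPM. The 8 leukocyte markers summed to 115 to 156 CPM in TNF + LED libraries and 93.4 to 139 CPM in TNF libraries, nearly all of it CD68, with PTPRC at most 0.132 CPM and CD3E and MS4A1 at 0 throughout. The 8 endothelial and epithelial markers summed to 58.7 to 76.9 CPM in TNF + LED libraries and 78.2 to 112 CPM in TNF libraries, nearly all of it TEK, with CDH5 at 0 throughout. TNF replicate 8 stood furthest from its group, with a median absolute deviation of 0.42 (log2) from the mean of the other two TNF libraries over all tested genes. For the other libraries this was 0.16 to 0.31, and members whose difference leans on TNF replicate 8 are given with and without it.

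MARCH9 (9-Mar, ENSG00000139266, chromosome 12, 3 merged exons) stood at 2.64, 2.52 and 2.96 CPM in TNF + LED replicates 4, 6 and 10, and at 7.10, 7.81 and 7.04 CPM in TNF replicates 2, 8 and 14. Every irradiated library lay below every library with TNFα alone, which was also so for 16.2% of all tested genes. The row was picked for this difference, so the gap, the SE and the range below describe these libraries and test nothing. The mean was 2.71 ± 0.223 CPM in TNF + LED cells and 7.31 ± 0.426 CPM in TNF cells (SD, n = 3 each), a ratio of 0.370. On the log2 scale the difference was -1.43 ± 0.21 (SE), and it ranged from -1.50 to -1.39 when each library was left out in turn. These levels rested on about 70, 64 and 71 fragments in TNF + LED libraries and about 198, 198 and 152 in TNF libraries. In bulk RNA, fewer cells of a type and less RNA per cell cannot be told apart. The summed fibroblast markers were also lower in every TNF + LED library, as was COL1A1, the highest of them (8710 to 10800 CPM in TNF + LED libraries and 11800 to 14300 CPM in TNF libraries). The markers did not move as one: COL3A1 had a log2 difference of 0.29 and FAP stood at 127 to 167 CPM in TNF + LED libraries and 47.3 to 121 CPM in TNF libraries. Over the 9 tested fibroblast markers the median log2 difference was -0.09, with 0 called by edgeR, DESeq2 or limma-voom and 1 unadjusted p below 0.05 in edgeR. Over all genes these methods called 5.17%, 10.7% and 4.78%, and 22.7% had such a p, so counts over so few markers say little. TEK was lower in every TNF + LED library as well, while VWF was higher, at 1.44 to 1.93 CPM in TNF + LED libraries and 0.369 to 1.10 CPM in TNF libraries. The part of these markers in the MARCH9 difference was not tested.

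**Figure D1:**
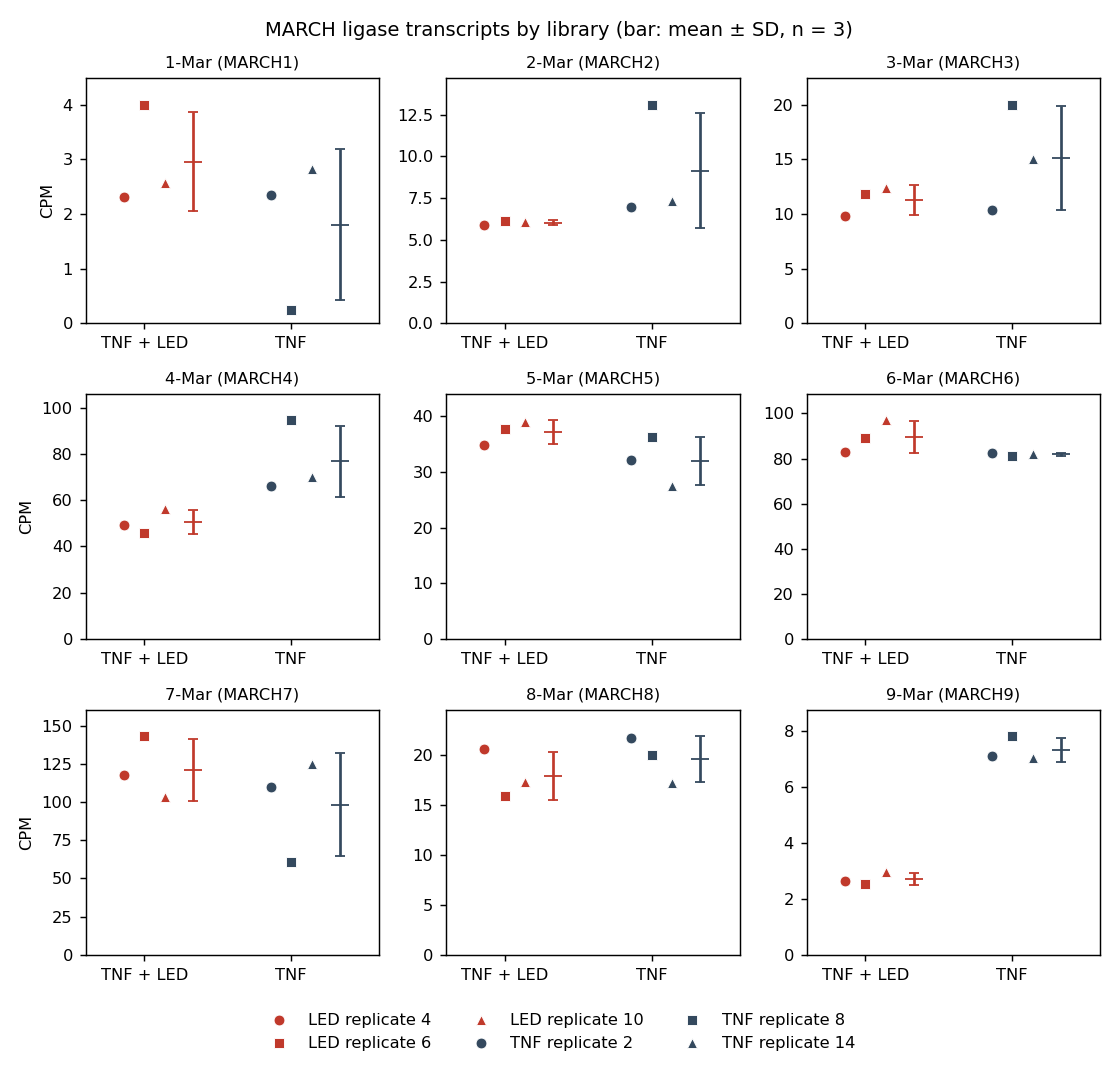
CPM of each MARCH row in the 6 libraries, with TNF + LED on the left and TNF on the right of each panel; points are libraries and bars are the mean ± SD (n = 3), on axes that start at 0. The groups of 9-Mar, the row picked for its low level in irradiated cells, are well apart at 2.52 to 2.96 CPM and 7.04 to 7.81 CPM. TNF replicate 8 stands away from its group in the panels of 1-Mar, 2-Mar, 4-Mar and 7-Mar.

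MARCH4 (4-Mar), the other Golgi member, had 49.4, 45.9 and 56.2 CPM in TNF + LED libraries and 66.0, 94.4 and 70.1 CPM in TNF libraries. Its groups did not overlap either, with means of 50.5 ± 5.20 CPM in TNF + LED cells and 76.8 ± 15.4 CPM in TNF cells (SD, n = 3 each). The log2 difference was -0.61 ± 0.19 (SE; 95% interval -1.04 to -0.17), with an adjusted p of 0.105 in edgeR's quasi-likelihood test over all genes, which missed the threshold of 0.05. Without TNF replicate 8, which held the highest value, the log2 difference was -0.43. DESeq2 gave MARCH4 an adjusted p of 0.054, the lowest of the 8 other members under any of the 13 other settings. The MARCH4 exons share 85 bases with an antisense RNA that has no row in the table, and whether reads were counted by strand was not found in the labels.

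The endosomal pair was lower on average in irradiated cells, without passing the test. MARCH2 (2-Mar) stood at 5.87, 6.16 and 6.06 CPM in TNF + LED libraries and at 6.99, 13.1 and 7.32 CPM in TNF libraries. Its 3 irradiated libraries were nearly level, and all lay below the TNF libraries. The log2 difference was -0.60 ± 0.27 (SE), with an edgeR adjusted p of 0.218, and it was -0.25 without TNF replicate 8 and -0.57 to -0.78 without any other library. MARCH3 (3-Mar), its nearest relative, had 9.78, 11.8 and 12.4 CPM in TNF + LED libraries and 10.4, 20 and 15 CPM in TNF libraries. Here the groups overlapped, and the log2 difference of -0.42 ± 0.25 (adjusted p = 0.363) was -0.17 without TNF replicate 8 and -0.64 without TNF replicate 2, the TNF libraries being spread evenly.

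The pair that acts on MHC class II showed no shared direction. MARCH1 (1-Mar), best known from dendritic cells and B cells, was the member with the lowest level per kilobase of exon, at 2.31, 4.00 and 2.57 CPM in TNF + LED libraries and 2.34, 0.236 and 2.83 CPM in TNF libraries. TNF replicate 8 held about 6 MARCH1 fragments, against about 61 to 101 in each other library. The log2 difference of 0.72 ± 0.67 (SE; 95% interval -0.80 to 2.24; adjusted p = 0.577) was 0.20 without that library, 0.44 without TNF + LED replicate 6, 1.20 without TNF replicate 14 and 1.32 by limma-voom. MARCH8 (8-Mar), which is expressed in many tissues and also lowers the transferrin receptor, stood at 20.6, 15.9 and 17.3 CPM in TNF + LED libraries and at 21.7, 20 and 17.2 CPM in TNF libraries. The groups overlapped and the log2 difference was -0.13 ± 0.18 (95% interval -0.55 to 0.28; adjusted p = 0.719), or -0.23 to -0.05 without single libraries.

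MARCH5 and MARCH6, the members of the mitochondrion and the ER, were close between the groups. MARCH5 (5-Mar), which tags proteins of mitochondrial fusion and division, had 34.8, 37.6 and 38.9 CPM in TNF + LED libraries and 32.1, 36.2 and 27.5 CPM in TNF libraries. The log2 difference was 0.22 ± 0.17 (95% interval -0.17 to 0.60; adjusted p = 0.498), or 0.12 to 0.32 without single libraries. MARCH6 (6-Mar), the counterpart of yeast Doa10, had 83.0, 89.3 and 96.9 CPM in TNF + LED libraries and 82.5, 81.1 and 82.0 CPM in TNF libraries. Its groups did not overlap, though only narrowly, and the log2 difference of 0.13 ± 0.16 (95% interval -0.22 to 0.48; adjusted p = 0.666) was smaller than its error, and it was 0.07 to 0.20 without single libraries. MARCH7 (7-Mar), also called axotrophin, had 118, 143 and 103 CPM in TNF + LED libraries and 110, 60.5 and 125 CPM in TNF libraries. The groups overlapped, and the log2 difference of 0.30 ± 0.27 (adjusted p = 0.547) was 0.05 without TNF replicate 8, 0.17 without TNF + LED replicate 6 and 0.51 without TNF replicate 14. The MARCH7 exons overlap those of CD302, a C-type lectin receptor on the opposite strand, over 2398 bases, so counts of the 2 genes may mix. CD302 itself had 19.0, 14.5 and 22.6 CPM in TNF + LED libraries and 20.1, 9.83 and 16.7 CPM in TNF libraries, with TNF replicate 8 the lowest for both genes. Its log2 difference was 0.27 ± 0.28 (edgeR adjusted p = 0.623), and 0.02 without TNF replicate 8.

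All 9 members passed the filter on low counts. Of the 8 members other than MARCH9, edgeR called 0, and DESeq2 and limma-voom also called 0, while 2 of 8 (MARCH2 and MARCH4) had an unadjusted p below the 0.05 threshold, as did 22.7% of all tested genes. Over all 13794 tested genes, 713 were called (5.17%), of which 336 were higher (2.44%) and 377 lower (2.73%) in TNF + LED cells. DESeq2 called 10.7% of the genes to which it gave an adjusted p, and limma-voom called 4.78%. Groups that did not overlap were common, at 32.4% of tested genes (16.2% higher and 16.2% lower). Of the same 8 members, 2 lay wholly lower, 1 wholly higher and 5 overlapped, a share close to that background. The log2 difference was above 0 for 4 of the 8 and below 0 for the other 4, beside a median of 0.01 over all tested genes.

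**Figure D2:**
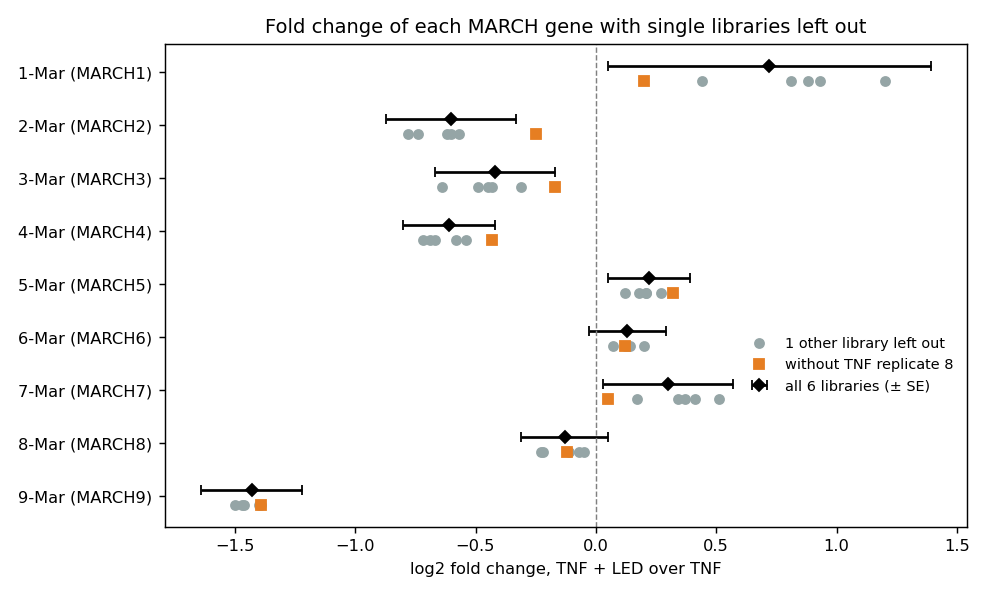
Log2 fold change of each MARCH row, TNF + LED over TNF; diamonds with bars are the fit of all 6 libraries ± SE, grey dots leave out 1 library and squares leave out TNF replicate 8. MARCH9 stays between -1.50 and -1.39, but it was picked for its low level in these irradiated libraries, so this range is no test of its difference. MARCH1, MARCH2, MARCH3 and MARCH7 move toward 0 without TNF replicate 8, to 0.20, -0.25, -0.17 and 0.05.

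Per kilobase of merged exons, the members covered a wide range of levels. In TNF + LED cells the order from the highest was MARCH7 at 19.3 ± 3.18 CPM per kb, MARCH4 at 11.4 ± 1.17, MARCH5 at 8.01 ± 0.451, MARCH6 at 7.91 ± 0.616 and MARCH2 at 2.72 ± 0.0667. It ended with MARCH8 at 2.37 ± 0.320, MARCH3 at 2.18 ± 0.264, MARCH9 at 0.676 ± 0.0557 and MARCH1 at 0.284 ± 0.0875 CPM per kb (SD, n = 3). Neighbours whose libraries overlapped in TNF + LED cells were MARCH5 and MARCH6, MARCH2 and MARCH8, and MARCH8 and MARCH3.

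In TNF cells MARCH4 led at 17.3 ± 3.46 CPM per kb, then MARCH7 at 15.6 ± 5.35, MARCH6 at 7.22 ± 0.0615, MARCH5 at 6.89 ± 0.941 and MARCH2 at 4.12 ± 1.55. MARCH3 at 2.92 ± 0.922, MARCH8 at 2.60 ± 0.303, MARCH9 at 1.83 ± 0.106 and MARCH1 at 0.173 ± 0.132 CPM per kb closed the order (SD, n = 3). MARCH4 and MARCH7 overlapped there, as did MARCH6 and MARCH5, MARCH2 and MARCH3, and MARCH3 and MARCH8. The lowest MARCH5 library (5.93) only just cleared the highest MARCH2 library (5.92). MARCH9 was 8th and MARCH1 9th of the 9 in both groups, and the order was the same with the longest transcript as the length.

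**Figure D3:**
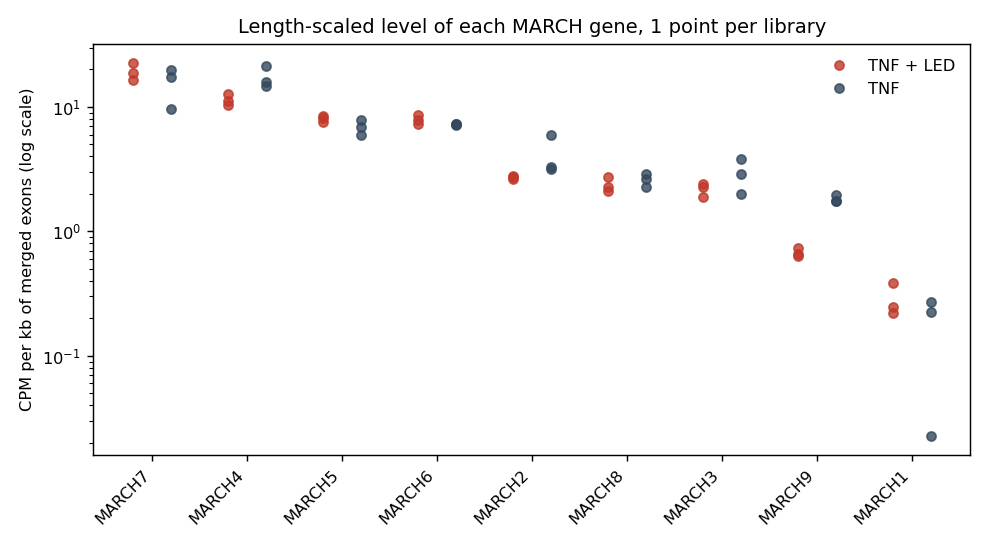
Length-scaled level of each MARCH gene in CPM per kb of merged exons on a log axis, 1 point per library, TNF + LED on the left of each pair and TNF on the right, ordered by the TNF + LED mean. MARCH7, MARCH4, MARCH5 and MARCH6 lie at the top, and MARCH9 and MARCH1 at the bottom in both groups.

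MARCH9 lies in a dense stretch of chromosome 12, and its neighbours did not all move with it. CDK4, a cyclin-dependent kinase of the G1 phase, overlaps the MARCH9 span on the opposite strand but shares 0 exon bases with it. CDK4 had 139, 177 and 129 CPM in TNF + LED libraries and 132, 166 and 114 CPM in TNF libraries. Its log2 difference of 0.11 ± 0.20 (adjusted p = 0.791) took the other sign without TNF + LED replicate 6 (-0.04) or TNF replicate 14 (-0.01). TSPAN31, a tetraspanin 4.89 kb away on the same strand, had 8.68, 11 and 9.16 CPM in TNF + LED libraries and 8.90, 9.69 and 8.25 CPM in TNF libraries, a log2 difference of 0.10 ± 0.19 (adjusted p = 0.788).

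AGAP2, a GTPase-activating protein gene 12.9 kb away on the opposite strand, fell in irradiated cells. It stood at 4.78, 6.93 and 6.45 CPM in TNF + LED libraries and at 10.4, 17.6 and 11.6 CPM in TNF libraries, with no overlap. The log2 difference was -1.12 ± 0.25 (edgeR adjusted p = 0.0405), and the call was lost without any single library except TNF replicate 2 (adjusted p up to 0.150). CYP27B1, which makes active vitamin D, averaged 1.08 ± 0.0587 CPM in TNF + LED cells and 1.43 ± 0.118 CPM in TNF cells. Its log2 difference was -0.4 ± 0.31 (SE, edgeR adjusted p = 0.501), and its groups did not overlap. METTL1, a tRNA methyltransferase, averaged 14.0 ± 0.999 CPM in TNF + LED cells and 16.7 ± 3.00 CPM in TNF cells (edgeR adjusted p = 0.486). The METTL1 groups overlapped, and the log2 difference of -0.25 was -0.09 without TNF replicate 8. Over all tested genes 16.2% lay wholly lower in TNF + LED libraries.

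**Figure D4:**
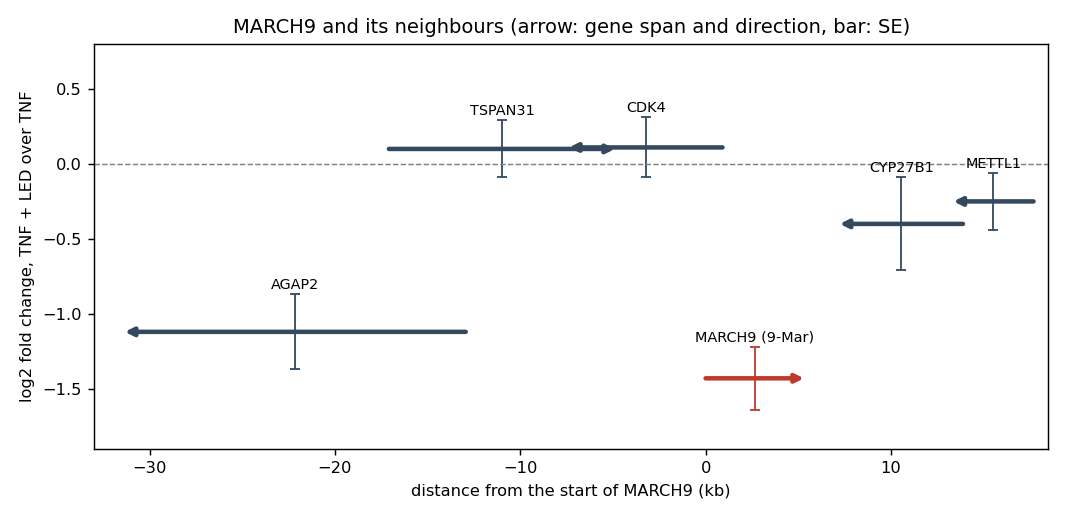
Log2 fold change, TNF + LED over TNF, of MARCH9 and 5 neighbours against the distance in kb from the start of MARCH9; arrows give gene span and direction and bars are the SE. MARCH9 at -1.43 and AGAP2 at -1.12 lie low, and CDK4 and TSPAN31 lie near 0.

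The 5 genes whose centred log2 CPM over the 6 libraries was nearest to that of MARCH9, among 11897 genes with a mean of at least 1 CPM, were SGO1, NBEAL2, NTM, PRIM1 and SFI1. Likeness to a gene that was picked for its difference fixes a difference in these too, so their values carry no test. SGO1, which protects centromeric cohesion, differed from the MARCH9 profile by a mean of 0.071 (log2) and had 3.37, 3.32 and 3.58 CPM in TNF + LED libraries and 8.80, 9.23 and 7.58 CPM in TNF libraries. PRIM1, the small subunit of DNA primase, differed by 0.0954 and had 3.92, 3.12 and 3.87 CPM in TNF + LED libraries and 10.3, 11.3 and 10.7 CPM in TNF libraries. NBEAL2 (0.0897), NTM (0.0899) and SFI1 (0.102) averaged 1.91 ± 0.196, 31.3 ± 4.35 and 5.04 ± 1.04 CPM in TNF + LED cells, against 5.47 ± 0.0764, 74.4 ± 9.55 and 13.7 ± 0.711 CPM in TNF cells. Among the other MARCH genes, MARCH4 was the nearest to MARCH9, at rank 1024 (0.418), followed by MARCH2 at rank 1375 (0.459), and MARCH1 was the farthest at rank 11655 (1.35).

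Of 32 surface and endosomal proteins reported as MARCH substrates, 27 were tested, and 1 rose, 2 fell and 24 did not pass in edgeR (11.1% called, median log2 fold change -0.21, beside 5.17% called and a median of 0.01 over all tested genes). By edgeR 9 of the 27 had an unadjusted p below 0.05, and DESeq2 called 7 and limma-voom 3. Over all genes these shares were 22.7%, 10.7% and 4.78%. ICAM1, the leukocyte adhesion molecule reported as a MARCH9 substrate, fell. It had 216, 233 and 235 CPM in TNF + LED libraries and 370, 620 and 559 CPM in TNF libraries, a log2 difference of -1.18 ± 0.21 (adjusted p = 0.0222, edgeR). FAS, the death receptor reported as a MARCH8 substrate, rose, with 65.4, 75.0 and 62.3 CPM in TNF + LED libraries and 40.4, 28.9 and 38.9 CPM in TNF libraries, a log2 difference of 0.91 ± 0.19 (edgeR adjusted p = 0.0324). The ICAM1 and FAS calls were lost without any one TNF + LED library or TNF replicate 14, with adjusted p up to 0.102 and 0.118. The fibroblast marker sum, led by COL1A1, was lower in the same TNF + LED libraries (23900 to 25300 CPM, against 28100 to 30100 CPM in TNF libraries), with 0 of its 9 tested markers called by edgeR and 1 with an unadjusted p below 0.05, and its part in these list results was not tested.

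MHC class I transcripts, whose proteins MARCH4 and MARCH9 remove from the surface, were named for that role and not by their values. HLA-B averaged 1090 ± 122 CPM in TNF + LED cells and 1290 ± 308 CPM in TNF cells, and HLA-C averaged 667 ± 106 CPM in TNF + LED cells and 786 ± 182 CPM in TNF cells, with edgeR adjusted p of 0.546 and 0.571. Their log2 differences of -0.25 and -0.24 ran from -0.45 to -0.11 and from -0.43 to -0.09 without single libraries, nearest 0 without TNF replicate 8. TFRC, the transferrin receptor, averaged 279 ± 18.6 CPM in TNF + LED cells and 314 ± 64.7 CPM in TNF cells, with an edgeR adjusted p of 0.645. Its log2 difference of -0.17 was -0.03 without TNF replicate 2 and -0.31 without TNF replicate 8. The split of counts among the HLA class I genes is uncertain because they are close in sequence.

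Of 17 mitochondrial and ER proteins handled with MARCH5 or MARCH6, 17 were tested, and 2 rose, 0 fell and 15 did not pass (11.8% called, beside 5.17% of all tested genes; median log2 fold change 0.18). By edgeR 4 of the 17 had an unadjusted p below 0.05, close to the 22.7% of all tested genes. DESeq2 called 3 and limma-voom 2, against 10.7% and 4.78% of all genes. RGS2, a brake on G-protein signalling that MARCH6 degrades, rose, with 17.9, 13.8 and 10.2 CPM in TNF + LED libraries and 3.45, 1.02 and 3.22 CPM in TNF libraries, a log2 difference of 2.45 ± 0.43 (edgeR adjusted p = 0.0198). DIO2, the deiodinase that activates thyroid hormone and is likewise degraded through MARCH6, rose, with 40.2, 31.3 and 51.2 CPM in TNF + LED libraries and 8.59, 1.25 and 7.80 CPM in TNF libraries, a log2 difference of 2.80 ± 0.58 (edgeR adjusted p = 0.0320). SQLE, the sterol enzyme best known as a MARCH6 substrate, had 85.3, 42.7 and 119 CPM in TNF + LED libraries and 125, 104 and 123 CPM in TNF libraries (log2 -0.51 ± 0.32, edgeR adjusted p = 0.379). The SQLE difference was -0.20 without TNF + LED replicate 6 and -0.88 without TNF + LED replicate 10. The RGS2 call was lost without TNF + LED replicate 4 or 6 or TNF replicate 14, and the DIO2 call without any TNF + LED library or TNF replicate 14.

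**Figure D5:**
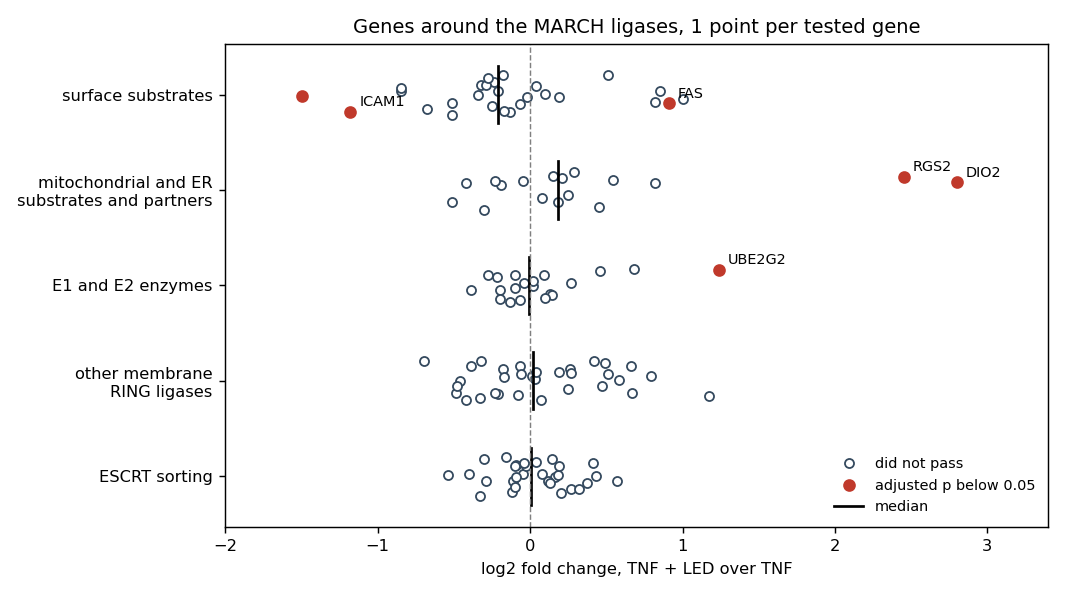
Log2 fold change, TNF + LED over TNF, of the tested genes in 5 lists around the MARCH ligases, 1 point per gene; filled points, most of them named, have an adjusted p below 0.05 and vertical strokes are list medians. ICAM1 lies at -1.18, FAS at 0.91, and RGS2 and DIO2 at 2.45 and 2.80.

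Among 20 E1 and E2 enzymes, which supply ubiquitin to RING ligases, all were tested, and 1 rose, 0 fell and 19 did not pass. The 5% called was near the 5.17% of all tested genes, and the median log2 fold change was -0.01. By edgeR 3 of the 20 had an unadjusted p below 0.05, and DESeq2 called 2 and limma-voom 1. Over all genes these shares were 22.7%, 10.7% and 4.78%. The riser was UBE2G2, an E2 of ER-associated degradation, with 54.5, 41.1 and 60.4 CPM in TNF + LED libraries and 20.3, 26.4 and 19.3 CPM in TNF libraries. Its log2 difference was 1.24 ± 0.21 (edgeR adjusted p = 0.0172), and the call was lost without TNF + LED replicate 4 or 10 or TNF replicate 14. UBE2J2, an E2 that works with MARCH6, averaged 57.9 ± 22.7 CPM in TNF + LED cells and 66.4 ± 15.2 CPM in TNF cells (edgeR adjusted p = 0.730), a log2 difference of -0.20 that ran from -0.56 to -0.03 without single libraries.

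The 34 other membrane-embedded RING ligases, of which 32 were tested, had 0 calls in edgeR, 7 with an unadjusted p below 0.05, 2 calls in DESeq2 and 0 in limma-voom, with a median log2 fold change of 0.02. Over all genes 22.7% had such a p, and edgeR, DESeq2 and limma-voom called 5.17%, 10.7% and 4.78%. RNF185, an ER ligase, averaged 117 ± 26.8 CPM in TNF + LED cells and 67.7 ± 8.92 CPM in TNF cells (log2 0.79 ± 0.21; adjusted p = 0.0595 by edgeR and 0.00765 by DESeq2). RNF145, a sterol-sensing ER ligase, averaged 97.3 ± 27.3 CPM in TNF + LED cells and 159 ± 29.5 CPM in TNF cells (log2 -0.70 ± 0.24; adjusted p = 0.117 by edgeR and 0.0477 by DESeq2). Of 31 genes of ESCRT sorting and its deubiquitinases, 30 were tested, with 0 calls by edgeR, DESeq2 and limma-voom. In edgeR 1 had an unadjusted p below 0.05, and the median was 0.01, beside the same shares over all genes. The lowest p there belonged to CHMP1B, an ESCRT-III subunit, with 67.5, 89.8 and 64.4 CPM in TNF + LED libraries and 48.3, 49.0 and 52.3 CPM in TNF libraries (log2 0.57 ± 0.18, edgeR adjusted p = 0.106). CHMP2A, another subunit of ESCRT-III, averaged 88.5 ± 12.2 CPM in TNF + LED cells and 68.7 ± 6.07 CPM in TNF cells, with an edgeR adjusted p of 0.249.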

How the data were processed

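Per the labels' protocols, Trizol-extracted RNA was depleted of ribosomal RNA, fragmented by heat and copied from random primers. HISAT2, StringTie, bcl2fastq 2.0, limma and DESeq2 are listed in the submitters' processing notes with no roles, beside the mouse build mm10, although samples and symbols are human. No coordinates are therefore given for the files' genes. The authors deposited estimated counts per gene as whole numbers, which entered the tests as deposited; strand use, human build and annotation in the counting are not given in the sources used here. Intervals and limits cover counting error and the spread between libraries only.

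The groups were compared with edgeR 4.0.16 in R 4.3.3 (quasi-likelihood test, filterByExpr, TMM, robust, two-sided, Benjamini-Hochberg over 13794 genes, threshold 0.05). Alternatives were DESeq2 1.42.0, limma-voom (limma 3.58.1), RLE size factors, library totals only, no filter, at least 40 counts in 3 libraries, counts divided by 4, and leaving out each library. Tested on simulated data of this comparison (13611 genes), edgeR called 37 of 99 genes given a log2 change of 1, 83 of 97 given 2, and 10 of 13415 unchanged genes. Whether replicates came from separate cultures is not stated in the labels, and the p-values reflect the spread among these 6 libraries, which could be technical.

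Members and gene lists were chosen with earlier results of these data known. Named genes were all members, up to 4 called genes with the lowest p per list (where none was called, the 2 with the lowest p) and the 5 genes most like MARCH9. The MARCH9 neighbours, CD302, HLA-B, HLA-C, TFRC, SQLE and UBE2J2 were added for position or textbook role, outside that rule. Some genes of the lists are counted but not reported by name here. Lengths and neighbours came from GENCODE 29, which matched 19217 of 19475 symbols, and promoters from RefSeq.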

Additional observations from a re-analysis of the deposited data

How the results depend on the processing

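Under 13 other settings the log2 fold changes of the 8 MARCH genes other than MARCH9 kept their direction and their side of the threshold in 104 of 104 cases, and 0 of these 8 were called in each, while MARCH1 ran from 0.20 to 1.20 without single libraries and was 1.32 by limma-voom. The count over all genes was 713, with 591 to 1646 under other tools, filters and scalings (1646 by DESeq2, the one that moved by over 1.5 times) and 80 to 737 without single libraries (116, 80 and 219 without TNF + LED replicates 4, 6 and 10, and 113 without TNF replicate 14). The surface substrates had 3 calls among 27 tested genes, 7 by DESeq2, which called 10.7% of all genes, and 0 to 3 without single libraries. The mitochondrial and ER list had 2, with 0 to 2 without single libraries. The E1 and E2 enzymes had 1, and 2 each by DESeq2, with at least 40 counts in 3 libraries and with counts divided by 4, and 0 to 1 without single libraries. The other membrane RING ligases had 0, and 2 by DESeq2. Beyond having fewer samples where a library was left out, the cause was not tested. Signs reversed for CDK4 (-0.037 without TNF + LED replicate 6 and -0.008 without TNF replicate 14, within -0.037 to 0.265 over single omissions) and TSPAN31 (-0.004 without TNF + LED replicate 6, within -0.004 to 0.186). The other named genes, leaving out those picked for likeness to MARCH9, kept direction and side in 232 of 260 cases, and 23 lost and 2 gained a call. No scaling moved the median of all genes by over 0.1. No paired analysis was run, because the replicate numbers are sample numbers that differ for every library and the labels name no pairs. MARCH1 rested on about 6 fragments in TNF replicate 8, and its SE was 0.67 with that library and 0.30 without it.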

Other observations

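The remaining date rows were at or near 0 and are not among the members compared above. 10-Mar held 15, 0 and 0 units of estimated count in TNF + LED replicates 4, 6 and 10, and 4, 0 and 4 units in TNF replicates 2, 8 and 14, where 12 units are the 3 fragments that a count of 0 allows. 11-Mar, whose namesake MARCH11 is the third Golgi member, was at 0 in all 6 libraries. 1-Dec held 0, 18 and 15 units in TNF + LED libraries and 20, 0 and 19 units in TNF libraries. The mitochondrial amidoxime-reducing genes MARC1 and MARC2, which keep rows of their own, stood at 0.189, 0.239 and 0.487 CPM and at 3.19, 3.01 and 3.02 CPM in TNF + LED libraries, against 0.619, 0.305 and 0.0923 CPM and 2.56, 3.02 and 3.45 CPM in TNF libraries.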
